A study of Mus musculus with 5 samples.

Results

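The cells described here carry the authors' label "PTEC: Lrp2- S2/3", the proximal tubule epithelial cells that were assigned to the later segments (S2 and S3) and named for low Lrp2. They were taken from the deposited cell table by that label and are 817 of 23797 kept cells. Their numbers per mouse were 318, 179, 171, 40 and 109 (mice 1 to 5). The study sequenced single cells from kidneys of 5 mice after ischemia-reperfusion injury (IRI, clamping of the blood supply followed by reflow). The kidneys of mice 1 and 2 were collected 48 h after injury, those of mice 3, 4 and 5 on day 10. A library was made from each mouse with droplet 3′ chemistry of 10x Genomics, and the labels name no strain, sex, age or further treatment. No uninjured kidney is among the samples, so each time comparison is between an early and a late kidney after IRI.

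The proximal tubule takes back most of the glucose, amino acids, phosphate and protein that the glomerulus filters. Its S1 and S2 parts lie in the cortex and its straight S3 part in the outer medulla, the part most easily injured by loss of blood flow. Lrp2 encodes megalin, the large endocytic receptor that with cubilin (Cubn) and amnionless (Amn) takes up filtered protein at the brush border. The tubule's work is paid for by mitochondria and fatty acid oxidation, and its cells are also rich in peroxisomes, glutathione transferases and gluconeogenic enzymes.

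All 817 cells lay in cluster 1 of the deposited clustering, together with the other labelled proximal tubule cells (4680 cells with 5 labels in all). No cell barcode was shared between libraries within the label, against 57 shared barcodes among all kept cells. The summed UMIs (unique molecular identifiers, which count captured RNA molecules) of the label were 815017, 450155, 569480, 125094 and 322404 in mice 1 to 5. Mouse 4 stood apart. It gave only 40 of the cells, and its level of Kap, an androgen-driven proximal tubule gene, was 48.0 counts per 1000000 summed UMIs (CPM) against 3369, 4958, 6882 and 8545 CPM in mice 1, 2, 3 and 5. Kap was at 45.4 CPM also in the Lrp2+ S2/3 cells of mouse 4, with 11076 to 37478 CPM in those of the other mice. Counts of changed genes are therefore also given without mouse 4.

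The cells were shallow and poor in mitochondrial RNA. The median cell held 1990 UMIs (quartiles 1389 and 3283, range 1000 to 28562), and 82.7% of cells held under 4000. The 988 cells labelled "PTEC: Lrp2+ S2/3" had a median of 16602.5 UMIs. Mitochondrial genes took a median of 1.94% of UMIs in the Lrp2-negative cells and 24.4% in the Lrp2+ cells. Under 5% mitochondrial UMIs were found in 77.4% of the former and 1.72% of the latter. By mouse the Lrp2-negative medians were 1.99, 1.80, 1.85, 2.06 and 2.25% mitochondrial UMIs, so no mouse overlapped with the Lrp2+ label, where the medians ran from 22.4 to 25.4%. A low share was found in 1 other proximal tubule label: the cycling cells had medians of 3.92, 4.54, 4.57, 5.31 and 5.27% at median depths of 2670 to 10881 UMIs. The tubule cells labelled TEC, at median depths of 1556 to 1687 UMIs, had medians of 5.19, 3.90, 2.64, 2.85 and 4.03% in mice 1 to 5. Shallow cells did not have a low share in every label. The 126 Lrp2+ cells with under 4000 UMIs had medians of 21.4, 13.5, 28.8, 22.2 and 27.1% in mice 1 to 5. The cause of the low share was not tested.

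**Figure D1:**
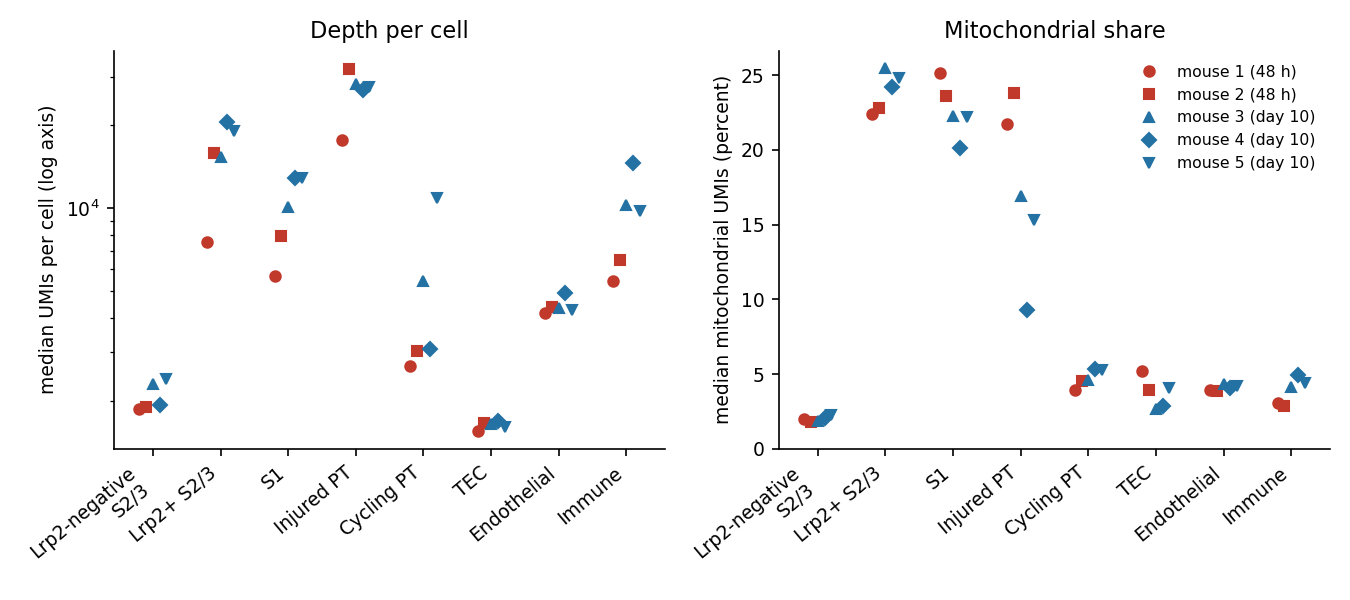
Median UMIs per cell (left, log axis) and median percent of UMIs from mitochondrial genes (right) for 8 of the deposited labels; each point is 1 mouse, red for 48 h and blue for day 10. The Lrp2-negative S2/3 points sit near those of the label TEC in depth and at the lowest mitochondrial share. The TEC label (2.64 to 5.19%) and the cycling proximal tubule label (3.92 to 5.31%) are also low in mitochondrial share. The Lrp2+ S2/3, S1 and injured labels lie above 15% except for the injured cells of mouse 4.

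Lrp2 was low in these cells but not absent. Lrp2 (chromosome 2, 69424340 to 69586065 of GRCm38, minus strand) stood at 133, 198, 321, 232 and 406 CPM in mice 1 to 5, against 1345, 1637, 1227, 1143 and 1225 CPM in depth-matched Lrp2+ cells. With each cell thinned to 1000 UMIs, 20.6% ± 6.76 (SD, n = 5 mice) of the Lrp2-negative cells still had an Lrp2 UMI, and 35.7% did without thinning. The thinned share was 63.8% in Lrp2+ S2/3 cells, 4.47% in endothelial cells and 2.91% in immune cells. Endothelial and immune cells should lack megalin, but they were deeper, with medians of 4377 and 10081.5 UMIs before thinning. The tubule cells labelled TEC were shallower still, with a median of 1627 UMIs, and their thinned shares were 8.54, 12.04, 8.19, 2.82 and 9.91% in mice 1 to 5. The Lrp2-negative shares were 12.9, 17.3, 25.7, 17.5 and 29.4%. They were above the TEC share in every mouse, by the least in mice 1 and 2. The part of free RNA in them was not tested.

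The 4 markers given for the label were present. They were the glutathione transferases Gsta1 and Gsta2, the peroxisomal thiolase Acaa1b and the gluconeogenic enzyme Fbp1. Their summed level was 0.259, 0.336, 0.216, 0.233 and 0.225% of UMIs in mice 1 to 5, against 0.147 to 0.187% in depth-matched Lrp2+ cells and a mean of 0.0157% in the shallow tubule cells labelled TEC. The sum was thus higher than in the Lrp2+ label in every mouse, but so was the median gene. With each mouse centred on its median gene, the log2 ratios between the labels were 0.30 for Gsta2, 0.082 for Gsta1, -0.31 for Fbp1 and -0.68 for Acaa1b. At 1000 UMIs a Gsta2 UMI was found in 63.5% ± 3.39 (SD, n = 5) of cells, an Fbp1 UMI in 52.4% ± 7.32 and an Acaa1b UMI in 25.1% ± 7.91. The same shares in immune cells were 2.30, 1.85 and 0.618%. In Lrp2+ cells they were 50% ± 10.4, 43.5% ± 9.49 and 28.8% ± 9.5, so that the ranges over mice overlapped between the labels for all 3 genes. For Gsta2 they overlapped through mouse 4 alone, where 68.5% of Lrp2+ cells had a UMI against 44.0 to 47.1% in the other mice. Within mice the Lrp2-negative share was higher in 4 of 5 for Gsta2 and for Fbp1 and in 2 of 5 for Acaa1b. Gsta1 was different, with a UMI in 8.18 and 12.8% of cells of mice 1 and 2 and in 0.585% of cells of mouse 3. It was found in 0 of 40 thinned cells of mouse 4 and 0 of 109 of mouse 5, which allows shares of up to 7.5 and 2.75% (3 counts, for counting error only).

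Segment markers did not all go with the S2/3 name. The 7 S2 markers, among them the organic anion transporters Slc22a6 and Slc22a8, summed to 0.0286 to 0.0620% of UMIs over the 5 mice. That was well below the 0.216 to 0.331% of depth-matched Lrp2+ cells and close to the 0.0216 to 0.0346% of endothelial cells. The 9 S3 markers summed to 0.00879 to 0.0239%, against 0.0261 to 0.130% in Lrp2+ cells. The 8 S1 markers, with the arginine:glycine amidinotransferase Gatm as the most abundant, summed to 0.0845 to 0.175%, against 0.410 to 0.656% in the S1 label. Kap, in contrast, was 3369 to 8545 CPM outside mouse 4, far above the 282 to 792 CPM of the S1 label in the same mice. An Acaa1b UMI, too, was found in 9.36% of thinned S1 cells against 25.1% of these. The summed S2 and S3 markers were thus far under those of the Lrp2+ S2/3 label, and the S1 sum of these cells was above their S2 sum in every mouse. The median unthinned Lrp2+ cell also had more S1 than S2 marker UMIs at 48 h (0.271 and 0.227%). At day 10 it had fewer (0.159 and 0.262%). Kap outside mouse 4 and the share with an Acaa1b UMI were above those of the S1 label, but neither gene is in the segment lists. The part of free RNA in the level of Kap was not tested.

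Markers of other cell types took a small share of UMIs. Even so, the thick ascending limb sums and the macrophage sums at day 10 were of the same order as the S2 marker sums. The 9 macrophage markers summed to 0.00748, 0.0193, 0.0615, 0.0695 and 0.0831% of UMIs in mice 1 to 5. The 8 thick ascending limb markers summed to 0.0224 to 0.0606%, the 10 distal and collecting duct markers to 0.00808 to 0.0191% and the 7 neutrophil markers to 0.00217 to 0.050%. The 7 fibroblast markers reached at most 0.0160%, the 5 erythrocyte markers 0.0163%, the 8 endothelial markers 0.0113% and the 5 podocyte markers 0.00333%. The lymphocyte markers Cd79a, Cd79b and Ms4a1 were at 0 UMIs, as was the erythroid gene Alas2. Of the label's unthinned cells, 76.7% at 48 h and 13.1% at day 10 had no macrophage marker UMI. No thick ascending limb marker UMI was found in 30.2% of all its unthinned cells. The part of free RNA in these sums was not tested. The macrophage sum was higher in every day 10 mouse than in either 48 h mouse, and its part in the time comparison was not tested.

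Against the Lrp2+ S2/3 cells, the Lrp2-negative cells were lower in all 10 abundant transporters of the list and all 13 mitochondrially encoded genes, and higher in 6 of 7 injury genes. No gene was called in the lists of gluconeogenesis, peroxisome, mitochondrial fatty acid oxidation and nuclear-encoded respiratory chain. Lrp2+ cells were drawn and thinned to the UMI counts of the Lrp2-negative cells of the same mouse. Both labels come from 1 clustering of the same cells, so these ratios are a description without a test. Of 840 genes with at least 200 CPM in either label, 82 were at least 2-fold lower in all 5 mice (9.76%) and 25 at least 2-fold higher in all 5 (2.98%). The median gene had a log2 ratio of 0.61. With each mouse centred on its median gene, the counts were 121 lower and 3 higher (S100a6, Cryab and Lgals3), so that the higher genes made up 2.42% of those called in place of 23.4%. Without mouse 4 the counts were 86 lower and 37 higher. The rule then asks for the gap in fewer mice, so these counts cannot show how much rests on mouse 4. Ratios are best read against that median of 0.61.

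All 10 transporters of the list of 25 that reached 200 CPM were lower, with a median log2 ratio of -2.58. Slc34a1, the sodium-phosphate cotransporter of the brush border, was at 201, 415, 485, 368 and 726 CPM in mice 1 to 5, against 1924, 2857, 2732, 2294 and 3269 CPM in Lrp2+ cells. Every mouse was lower, and the ranges of the labels did not overlap (log2 ratio -2.63, SD 0.40). Slc22a6, which brings organic anions in from the blood, was at 78.5, 88.9, 54.4, 16.0 and 143 CPM against 808, 755, 636, 288 and 658 CPM (log2 ratio -3.36, SD 0.63). The amino acid transporter subunit Slc3a1 (-2.94) and the dicarboxylate carrier Slc13a3 (-3.06) were lower to a like degree. Over all genes with a solute carrier symbol, a family chosen after the ratios were seen, 15 of 20 were lower.

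The endocytic genes went with them in part. Besides Lrp2 (log2 ratio -2.28, SD 0.74), the receptor partner Amn was at 31.9, 37.8, 65.0, 24.0 and 80.6 CPM against 160, 160, 204, 216 and 264 CPM. Lrpap1, the chaperone that escorts megalin, was at 50.3 to 105 CPM against 307 to 418 CPM. Cubn did not reach 200 CPM on average and had a log2 ratio of -2.16. Dab2, a cytosolic adaptor that binds the megalin tail, was not lower: it had 401, 422, 406, 432 and 468 CPM against 275, 298, 274, 488 and 416 CPM (log2 ratio 0.50).

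All 13 mitochondrially encoded genes were lower, with a median log2 ratio of -2.59 and a range from -3.10 (mt-Nd4l) to -2.26. The complex IV subunit mt-Co1 was at 3194, 3401, 4581, 5292 and 5174 CPM against 20937, 23286, 22468, 25229 and 21957 CPM. The 28 nuclear-encoded subunits of the same respiratory chain did otherwise: none was 2-fold apart in all mice, and their median log2 ratio was 0.50, near that of all genes. The 10 peroxisomal genes (0.15) and 7 genes of mitochondrial fatty acid oxidation (0.21) also had none called. The 11 gluconeogenic genes had a median of 0.55 with none called. Of 13 glutathione genes only Ggt1, a membrane enzyme of the brush border, was lower (-2.19), and the median was 0.53.

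Chaperones were compared in lists chosen after the ratios had been seen. Of 6 chaperones of the endoplasmic reticulum, 4 were lower (Hspa5, Hsp90b1, Calr and Pdia3), with a median log2 ratio of -1.83. Hsp90b1, the reticulum's own HSP90, was at 120, 104, 223, 87.9 and 111.7 CPM against 673, 704, 637, 360 and 344 CPM. Of 13 chaperones of the cytosol none was called, and their median was 0.91. The 80 genes for cytosolic ribosomal proteins had a median of 0.73 and none was called, and ribosomal protein genes took 13.6 to 19.1% of the label's UMIs against 8.12 to 11.4% in the Lrp2+ label before thinning. Symbols of solute carriers, ABC transporters, cytochromes P450 and UDP-glucuronosyltransferases and the mitochondrially encoded genes made up 37 of the 82 lower genes. These symbol families, too, were chosen after the ratios were seen. Lower were 15 of 20 solute carriers, 2 of 3 ABC transporters, 5 of 5 cytochromes P450 and 2 of 2 UDP-glucuronosyltransferases. All 13 mitochondrially encoded genes were lower, against 9.76% of all 840 genes. The lowest of all was the fatty acid hydroxylase Cyp4a14 (log2 ratio -3.61, SD 0.36), followed by Slc22a6 and by complement factor B, Cfb (-3.24). The other named ones were Cyp4a10 (-3.18), Ugt3a2 (-3.12, with a spread of SD 1.60 since mouse 4 had no UMI), Ces1f (-3.10), mt-Atp8 (-2.995), the vitamin B12 carrier Tcn2 (-2.92) and mt-Nd3 (-2.91).

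**Figure D2:**
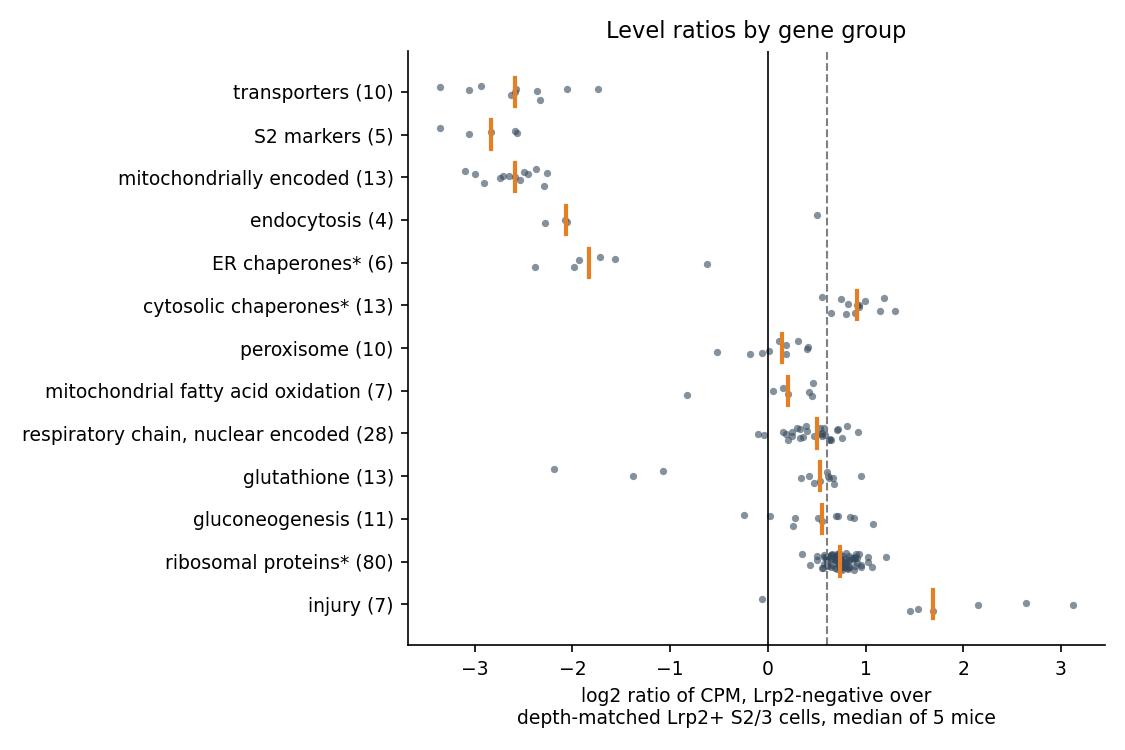
Log2 ratio of CPM between Lrp2-negative and depth-matched Lrp2+ S2/3 cells, 1 point per gene (median of 5 mice, vertical scatter for legibility only), with the number of genes in brackets, the group's median in orange and the median of all 840 genes as a dashed line. Transporters, S2 markers, mitochondrially encoded genes, reticulum chaperones and 3 of 4 endocytosis genes lie left of 0, the peroxisomal genes between -0.52 and 0.41, and the medians of the remaining groups right of 0; groups with an asterisk were chosen after the ratios were seen.

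Of 7 injury genes that reached 200 CPM, 6 were higher in the Lrp2-negative cells (Clu, Krt8, S100a6, S100a10, S100a11 and Tmsb10), with a list median of 1.69. Centred on the median gene, only S100a6 of these 6 was still at least 2-fold higher in all 5 mice. Cryab, a small heat shock protein, was at 795, 831, 666, 360 and 400 CPM against 61.5, 71.1, 132, 16.0 and 62.0 CPM (log2 ratio 3.53, SD 0.76). S100a11 was at 999, 780, 1147, 1215 and 1014 CPM against 328, 273, 241, 192 and 226 CPM (2.16, SD 0.47). Tmsb10, a thymosin that binds actin monomers, had a log2 ratio of 3.13 and the galectin Lgals3 one of 2.95. S100a6 reached 2398 CPM in mouse 4 and 235 to 826 CPM in the other mice. Sh3bgrl3 (1.93), Anxa5 (1.86), Stmn1 (1.76), Cstb (1.71), Lgals1 (1.70), S100a10 (1.69) and Eif6 (1.65) completed the 12 highest. Against Lrp2+ cells that held under 4000 UMIs without thinning, 8 genes were higher and 71 lower. The nuclear RNA Malat1 took 0.628 to 1.41% of UMIs against 1.70 to 2.39% in all Lrp2+ cells, but against 0.314 to 1.48% in those under 4000 UMIs.

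Fewer of the proximal tubule cells carried the label at day 10, but the test did not pass. Its share of all proximal tubule cells was 23.4 and 23.3% in mice 1 and 2 and 14.5, 11.98 and 10.5% in mice 3, 4 and 5. The groups did not overlap. In edgeR's quasi-likelihood test of cell numbers over the 5 proximal tubule labels the log2 fold change was -0.92 (SE 0.33, adjusted p = 0.0641). Without mouse 1 the adjusted p was 0.0325, without mouse 2 it was 0.0128, and it was 0.103, 0.230 and 0.254 without mice 3, 4 and 5. Within S2/3 cells alone the share was 79.5 and 50% at 48 h and 35.3, 26.5 and 26.5% at day 10. An exact two-sided permutation test over mice gave p = 0.2 for this share, the smallest that 2 against 3 mice can give. In mouse 1 only 82 S2/3 cells carried the Lrp2+ label. Shares of a dissociated kidney are shares of the cells that were captured and passed the filter of 1000 UMIs, which cuts into a label whose lower quartile is 1389 UMIs.

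**Figure D3:**
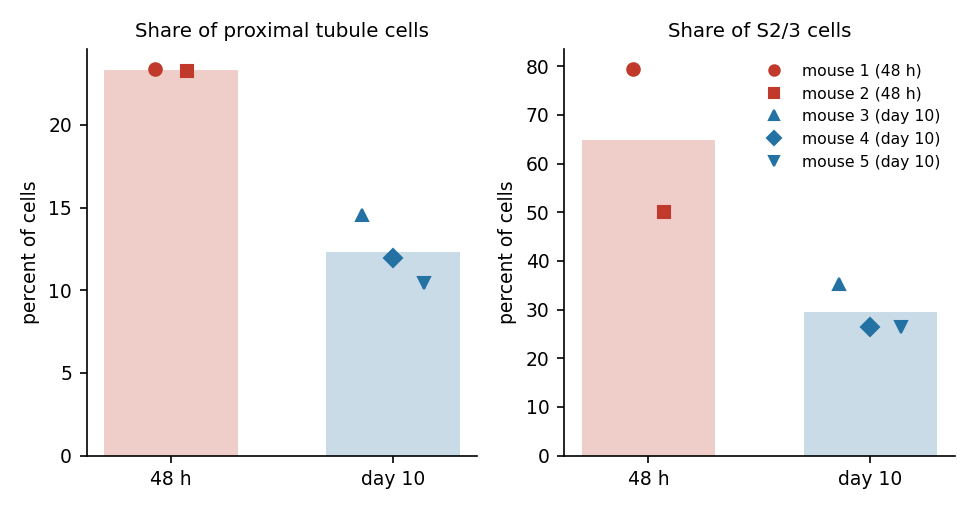
Share of the Lrp2-negative S2/3 label among all proximal tubule cells (left) and among S2/3 cells (right), in percent; points are mice and bars the mean of the 2 mice at 48 h and the 3 mice at day 10. All day 10 points lie below both 48 h points in each panel.

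The median UMIs per cell averaged 1877 ± 22.3 (SD, n = 2) at 48 h and 2211 ± 251 (SD, n = 3) at day 10 (exact permutation p = 0.2). The median genes per cell averaged 956 and 1093 (exact permutation p = 0.2), and the median mitochondrial percent 1.90 and 2.06 (exact permutation p = 0.4).

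Between 48 h and day 10 6 of 11 tested S-phase genes fell in the label, as did the marker Gsta1 and the ferritin Fth1, and the aspartic protease Napsa, the peroxisomal oxidase Hao2 and, alongside 5 of 6 tested macrophage markers, Apoe rose. UMIs were summed per mouse and tested with edgeR's quasi-likelihood F test and Benjamini-Hochberg adjustment at 0.05, and log2 fold changes are day 10 over 48 h with their standard error (SE). Of 5666 genes 81 passed (1.43%), 41 higher (0.724%) and 40 lower (0.706%) at day 10. In 27.8% of all tested genes the CPM of the 2 groups did not overlap. Without mouse 3 the number was 31, without mouse 4 it was 48 and without mouse 5 it was 45, whereas 136 passed without mouse 1. Of the 81 genes 29, 43 and 42 still passed without mice 3, 4 and 5. Of 32 named genes that passed, 14 passed without each mouse in turn: Apoe, C1qa, Cd74, Fth1, Gas5, Gsta1, Hao2, Hells, Igfbp7, Keg1, Napsa, S100g, Taldo1 and Umod. Of these 14, S100g did not pass with DESeq2 (adjusted p = 0.0507). With equal cells and UMIs per mouse, an edgeR fit of 1796 genes, Fth1 (adjusted p = 0.0881) and Keg1 (0.107) did not pass, and C1qa and Hells were not tested.

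The marker Gsta1 showed the deepest fall. Gsta1 (chromosome 9, 78230656 to 78242684, plus strand) was at 190 and 362 CPM in mice 1 and 2 and at 3.51, 16.0 and 0 CPM in mice 3, 4 and 5. The UMIs behind these levels were 155, 163, 2, 2 and 0, and a count of 0 in mouse 5 allows up to 9.31 CPM. The fitted log2 fold change was -6.04 (SE 0.52, edgeR adjusted p = 5.5e-06). The ratio of the summed groups was 63.9 at 48 h over day 10, with an exact 95% interval of 24.7 to 236 for counting error only. The signal lay in a minority of cells, with a UMI in 14.2 and 19.6% of all unthinned cells of mice 1 and 2 and up to 21 UMIs in 1 cell. In Lrp2+ cells before thinning Gsta1 was at 23.1, 46.1, 2.49, 45.7 and 5.01 CPM, so mouse 4 was as high there as the 48 h mice. The depth-matched test in that label gave a log2 fold change of -2.68 (edgeR adjusted p = 0.276). Lower levels at day 10 were seen in other labels too. Gsta1 was at 79.5 and 121.2 and then 0, 4.99 and 0 CPM in cycling and at 37.3 and 199.5 and then 2.25, 20.5 and 3.24 CPM in injured proximal tubule cells. Endothelial cells, which should lack it, had 3.22 and 7.78 and then 0, 0.506 and 0.581 CPM, and all cells together 16.9 and 26.1 and then 1.38, 3.03 and 1.11 CPM. Whether the fall differs between these labels, and the part of free RNA in it, was not tested.

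Gsta1 has close copies, which limits what its count can show. Of its 816 transcript words of 60 bases, 80.3% are also in the neighbouring gene model Gm3776 (chromosome 9, 78257129 to 78269166, plus strand) and 39.0% in Gsta2 (chromosome 9, 78331018 to 78355788, minus strand). The words are from whole transcripts, whereas the chemistry reads 3′ ends. How reads from shared stretches were counted was not tested. Gm3776 had 27, 38, 1, 0 and 0 UMIs in mice 1 to 5. Gsta2 was at 1308, 1388, 1222, 1671 and 1024 CPM, with overlapping groups and a log2 fold change of -0.09 (SE 0.23, edgeR adjusted p = 0.936). The 120 bases before the RefSeq start sites of both genes (build GRCm38.p6) are shown because these copies, which moved so differently, begin from nearly the same sequence. They are chr9:78230549-78230668 on the plus strand for Gsta1 and chr9:78347146-78347265 on the minus strand for Gsta2, the first ending just inside its GENCODE gene model and the second lying wholly inside its longer one. Each is written 5′ to 3′. Capitals mark bases that differ or face a gap within the alignment, in which 105 of 117 columns (89.7%) are identical, and the bases beyond its ends are in lower case.
Gsta1: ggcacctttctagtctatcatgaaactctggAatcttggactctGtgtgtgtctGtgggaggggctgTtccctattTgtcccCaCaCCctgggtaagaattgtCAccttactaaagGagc
Gsta2: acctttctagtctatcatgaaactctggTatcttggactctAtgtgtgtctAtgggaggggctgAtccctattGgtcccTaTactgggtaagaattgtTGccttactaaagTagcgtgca

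The other markers moved less. Acaa1b (chromosome 9, 119148023 to 119157093, minus strand) was at 427 and 522 CPM at 48 h and 197, 192 and 326 CPM at day 10 (log2 fold change -1.004, SE 0.24, edgeR adjusted p = 0.0431). This call is fragile: the adjusted p was 0.0691 without mouse 2, 0.246 without mouse 3 and 0.147 without mouse 4. Fbp1 (chromosome 13, 62864753 to 62888282, minus strand) was at 663 and 1084 CPM at 48 h and 736, 456 and 896 CPM at day 10, with overlapping groups (log2 fold change -0.32, edgeR adjusted p = 0.677). Lrp2 had a log2 fold change of 0.98 (SE 0.25), and its 3 day 10 mice were all above both 48 h mice. The label is named for this gene, so its value is given without a test.

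Most glutathione genes did not pass. Of 19 tested 3 fell and none rose, 6 had a positive log2 fold change, and the list median was -0.20. The 3 were Gsta1, Gstp1 (log2 fold change -1.41) and Gclc, the catalytic subunit that starts glutathione synthesis (-1.22). Gclc was at 377 and 180 CPM at 48 h and at 121, 87.9 and 152 CPM at day 10, and without mouse 1 its edgeR adjusted p was 0.567; it was 0.235, 0.178 and 0.0972 without mice 3, 4 and 5. Gstp1 also lost its call without mouse 2 (0.0942), 3 (0.0739), 4 (0.0825) or 5 (0.104). Taldo1, transaldolase of the pentose phosphate pathway, fell from 1039 and 1060 CPM to 427, 384 and 428 CPM (log2 fold change -1.37, SE 0.19, edgeR adjusted p = 0.00073). Blvrb, a biliverdin reductase, fell by 1.79 on the log2 scale and lost its call without mouse 3 (adjusted p = 0.0946) or mouse 4 (0.0611). Of 14 gluconeogenic genes 1 passed, Pck1 (-1.64, edgeR adjusted p = 0.0452), and its groups overlapped, with 386 CPM in mouse 1 and 394 CPM in mouse 5. Without mouse 2 its adjusted p was 0.819, and it was 0.203, 0.228 and 0.0972 without mice 3, 4 and 5.

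Of 8 tested genes of metallothioneins and iron handling 2 fell, Mt1 and Fth1, and none rose. The list's median log2 fold change was -1.16 against 0.01 for all genes tested. Fth1, the ferritin heavy chain that stores iron, was at 52534 and 36703 CPM at 48 h and 15816, 9793 and 14007 CPM at day 10 (log2 fold change -1.79, SE 0.25, edgeR adjusted p = 0.000837). The metallothionein Mt1 was at 679 and 760 CPM and then at 162, 352 and 177 CPM (-1.80, SE 0.27), and its edgeR adjusted p was 0.0533 without mouse 3 and 0.264 with equal cells and UMIs per mouse. S100g, a vitamin D-dependent calcium binder, fell from 1839 and 1193 CPM to 86.0, 232 and 382 CPM (-2.78, SE 0.39, edgeR adjusted p = 0.00073). Keg1, a glycine transferase typical of kidney, fell from 1902 and 1877 CPM to 760, 512 and 856 CPM (-1.42, SE 0.21). Odc1, the first enzyme of polyamine synthesis, fell by 1.40, with adjusted p of 0.0848, 0.0679 and 0.0611 without mice 2, 3 and 4.

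Replication genes were far lower at day 10. Of 11 tested S-phase genes 6 fell (Mcm2, Mcm5, Mcm6, Pcna, Rrm2 and Hells) and none rose, with a list median of -2.50. Hells, a chromatin remodeller of S phase, had 49 and 43 UMIs at 48 h and 1, 1 and 2 UMIs at day 10 (log2 fold change -4.20, SE 0.54, edgeR adjusted p = 0.000495). Rrm2, the small subunit of ribonucleotide reductase, had 21 and 28 UMIs and then 0, 0 and 1. The ratio of the summed groups was 39.4 (exact 95% interval 6.75 to 1587), and without mouse 2 the edgeR adjusted p was 0.111. For Mcm5, part of the replicative helicase, the UMIs were 34 and 25 against 0, 0 and 3 (ratio 15.8, interval 5.15 to 78.8), with adjusted p of 0.0963 without mouse 3 and 0.0542 without mouse 4. In depth-matched Lrp2+ cells only 2 S-phase genes were tested (median log2 fold change -1.17) and none passed. By the label-by-time term none of 10 tested S-phase genes differed between the labels, with a median difference of -0.22. Cells that the authors labelled as cycling are not in this label. The part of free RNA in the fall was not tested.

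Among the rises named by the rule for abundant genes, that of Apoe, the lipid carrier, was largest. It was at 50.3 and 57.8 CPM at 48 h and at 857, 1375 and 1107 CPM at day 10 (log2 fold change 4.33, SE 0.29, edgeR adjusted p = 1.7e-07). In immune cells it was at 2518 and 1756 CPM and then at 35874, 41828 and 35082 CPM, and it was higher at day 10 in the thick ascending limb label also, at 19.6 and 10.2 against 603, 775 and 679 CPM. Macrophage markers moved the same way in the label: 5 of 6 tested rose (C1qa, C1qb, C1qc, Lyz2 and Cd74), and their summed levels are given above. C1qa, a complement subunit of macrophages, was at 12.3 and 13.3 and then 68.5, 87.9 and 80.6 CPM, and Cd74, the invariant chain of MHC class II, at 16.0 and 13.3 and then 197, 56.0 and 282 CPM. C1qc had an edgeR adjusted p of 0.0598 without mouse 5, and Lyz2 of 0.127 and 0.0972 without mice 4 and 5. The part of macrophage RNA in the rise of Apoe was not tested. The neutrophil genes S100a8 and S100a9 fell (log2 fold changes -2.87 and -2.35), each led by mouse 2 with 213 and 251 CPM, and without it their adjusted p were 0.17 and 0.259. Without mice 3, 4 and 5 it was 0.0963, 0.178 and 0.166 for S100a8 and 0.0953, 0.177 and 0.176 for S100a9.

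Umod, uromodulin of the thick ascending limb, fell from 364 and 311 CPM to 118, 32.0 and 80.6 CPM (log2 fold change -1.97, SE 0.27, edgeR adjusted p = 0.00073). In the thick ascending limb label it was at 10596 and 16083 CPM and then at 9757, 7799 and 9457 CPM, and in endothelial cells at 282 and 173 and then 82.5, 45.2 and 84.6 CPM. Endothelial cells should lack Umod, and their levels were of the same order as those of the label in every mouse. The part of RNA from other cells in the fall was not tested.

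Other rises were of genes outside the list of macrophage markers. The part of RNA from other cells in these rises was not tested. Napsa was at 34.4 and 48.9 CPM at 48 h and 328, 240 and 602 CPM at day 10 (log2 fold change 3.27, SE 0.35, edgeR adjusted p = 6.8e-05), with 194.6 and 262 and then 1562, 845 and 1181 CPM in all Lrp2+ cells. Hao2 was at 134 and 142 and then 420, 280 and 490 CPM (1.53, SE 0.24, edgeR adjusted p = 0.00156). Igfbp7, a secreted binder of growth factors, was at 240 and 253 and then 655, 552 and 751 CPM (1.38, SE 0.21). Gas5, a long non-coding RNA, was at 267 and 264 and then 569, 1119 and 623 CPM (1.46, SE 0.27). Mep1a, the brush-border protease meprin, rose by 1.62, with adjusted p of 0.0963 and 0.131 without mice 3 and 5. The defensin Defb29 (log2 fold change 1.67) lost its call without mouse 3 (adjusted p = 0.153), as did B2m of MHC class I (1.17, adjusted p = 0.14). App rose by 1.17 and Ly6e by 1.16. App had an adjusted p of 0.0966, 0.0594 and 0.0685 without mice 1, 3 and 5, and Ly6e of 0.11, 0.0631 and 0.171 without mice 1, 4 and 5.

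Several groups did not move past the threshold. None of 19 tested injury genes passed: Havcr1 (kidney injury molecule 1) was at 93.2 and 26.7 and then 40.4, 39.97 and 40.3 CPM. Cryab, which is not in that list, was at 795 and 831 and then 666, 360 and 400 CPM (edgeR adjusted p = 0.125). None of the 13 mitochondrially encoded genes passed, though all 13 had a positive log2 fold change (median 0.69). None of 18 transporters passed, with 17 positive and a median of 0.50, and none of 6 endocytosis genes, with 6 positive and a median of 0.74. For the 28 nuclear-encoded respiratory chain genes the median was -0.16, for 18 genes of mitochondrial fatty acid oxidation -0.30, and none of either list passed. Of 17 peroxisomal genes Hao2 rose and Acaa1b fell.

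**Figure D4:**
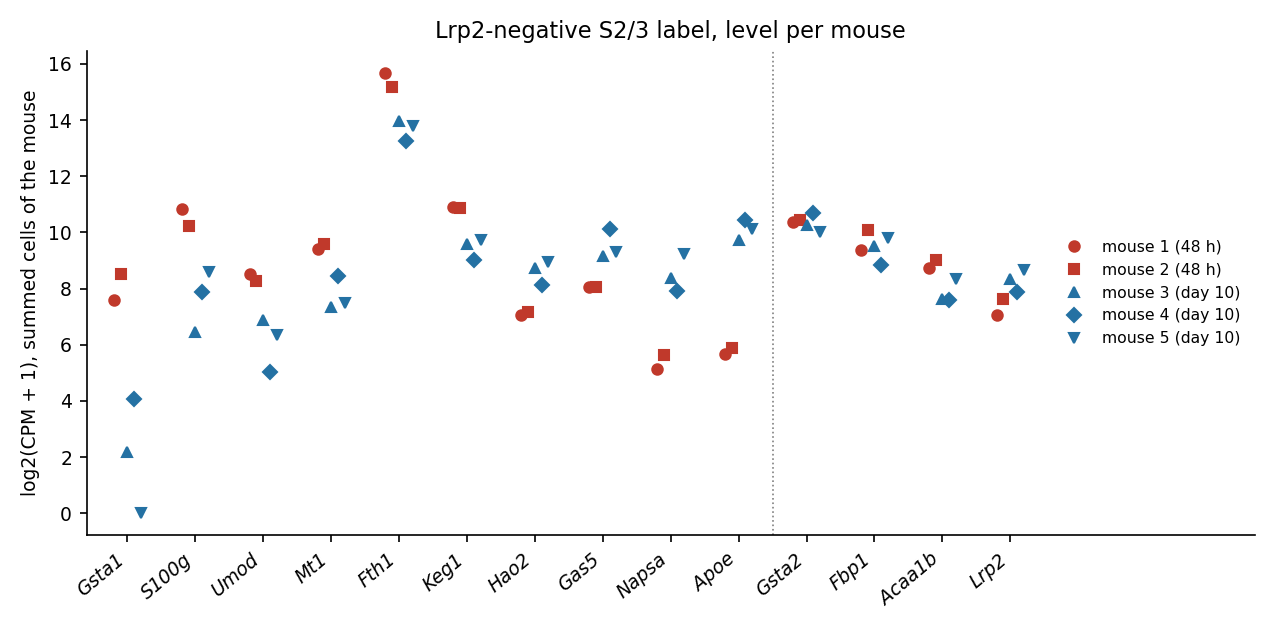
Level of 14 genes in the summed Lrp2-negative S2/3 cells of each mouse, as log2(CPM + 1), red for 48 h and blue for day 10; 0 on the axis is a gene with no UMI. The 10 genes left of the dotted line passed the test without each mouse in turn, apart from Mt1, while of the 4 right of it only Acaa1b passed; groups overlap for Gsta2 and Fbp1.

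The same comparison in Lrp2+ S2/3 cells, drawn and thinned to the depth of the Lrp2-negative cells, gave 21 of 4109 genes (0.511%), 8 higher (0.195%) and 13 lower (0.316%), and the groups did not overlap in 29.0% of the genes tested. Fewer genes passed the low-count filter there, and mouse 1 gave 82 drawn cells in place of 318. The number was 2 without mouse 3, 22 without mouse 4 and 4 without mouse 5. Several changes were of like size in both labels: Apoe had a log2 fold change of 4.33 in each, Fth1 of -1.79 and -1.73, Taldo1 of -1.37 and -1.49, and Hao2 of 1.53 and 1.69 (Lrp2-negative first). For these the difference between the labels was between -0.14 and 0.13 with edgeR adjusted p from 0.968 to 0.995. Gsta1 had the widest gap of the markers, -3.28 (SE 0.92), which did not pass (edgeR adjusted p = 0.0891).

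The time effects of the labels did differ for 38 of 5796 genes (0.656%), by the label-by-time term of an edgeR fit with the mouse as a block. In 34 the change was more positive in the Lrp2-negative cells and in 4 more negative. The number was 42, 48 and 19 without mice 3, 4 and 5. Of the 38 genes themselves 25, 34 and 17 still passed without these mice, 28 with a second draw of Lrp2+ cells and 17 with DESeq2. Without mouse 1 or 2 only 1 mouse is left at 48 h, so those fits are not counted here. Few of the 38 passed under every alternative setting. Since clusters of the same cells give both labels, a change within cells and a change in which cells received each label cannot be told apart. Spp1, osteopontin, had the firmest difference: it fell in Lrp2+ cells from 27911 and 10294 CPM to 2792, 1911 and 4519 CPM, and in Lrp2-negative cells it was at 9848 and 3605 and then 5493, 2606 and 4327 CPM (difference 1.99 on the log2 scale, SE 0.19, edgeR adjusted p = 3.6e-09). The groups overlapped in the Lrp2-negative cells and not in the Lrp2+ cells. Spp1 was most abundant in the thick ascending limb label, at 83744 and 72776 and then 44859, 34034 and 35706 CPM, and endothelial cells were at 5164 and 1529 and then 1327, 561 and 1176 CPM. The part of free RNA in these levels was not tested. Tmsb10 was flat in the Lrp2-negative cells, at 404 and 358 and then 399, 488 and 391 CPM, while it fell in the Lrp2+ cells from 115 and 127 to 28.1, 32.0 and 43.4 CPM (difference 1.97, SE 0.32, edgeR adjusted p = 0.000569; 0.0621 without mouse 2).

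Lrp2 is 1 of the 34, but both labels are named for its level, so its values are a description and no test. It averaged 165 CPM at 48 h and 320 CPM at day 10 in the Lrp2-negative cells, and 1491 and 1199 CPM in the Lrp2+ cells, a difference of 1.34 (SE 0.21). Cubn differed by 1.56 (edgeR adjusted p = 0.0316), but not without mouse 1 (0.249), 2 (0.156) or 5 (0.287). Of 8 tested S1 markers 4 were among the 34, and the list's median difference was 1.12: Slc5a2, the sodium-glucose cotransporter SGLT2 (1.64), Slc5a12 (1.68), Slc4a4 (0.85) and Gatm (0.85). The time effect was positive in 6 of 7 S1 markers tested in the Lrp2-negative label (median 0.52) and in 0 of 8 in the Lrp2+ label (median -0.65), with none called in either. Of 24 tested transporters 4 were among the 34 and none among the 4, the same 3 sodium-coupled carriers and Slc13a1 (1.01). Of the 13 mitochondrially encoded genes 3 were, mt-Nd1 (0.80), mt-Co3 (0.66) and mt-Cytb (0.67). The reticulum protein P4hb (1.41) and the brush-border phosphatase Alpl (1.76), both named by the rule, also belonged to the 34. So did the reticulum proteins Pdia6 (1.56), Ppib (1.25), Hsp90b1 (0.99) and Calr (0.95), and Igfbp7 (1.11) and App (1.23). These last were all named after their values were seen. The 4 with a more negative change included Gclc (-1.53) and Malat1 (-0.75). With a second draw of Lrp2+ cells P4hb, Slc5a2, Cubn, Slc4a4, Calr, mt-Co3 and mt-Cytb lost their calls. Apart from Lrp2 and Spp1, each gene named from this fit lost its call without at least 1 mouse. Many of these genes are ones that were far lower in the Lrp2-negative cells than in the Lrp2+ cells: P4hb, for instance, was at 33.1 and 39.99 and then 61.5, 87.9 and 74.4 CPM, against 250.2 and 222 and then 162, 176 and 186 CPM in Lrp2+ cells.

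**Figure D5:**
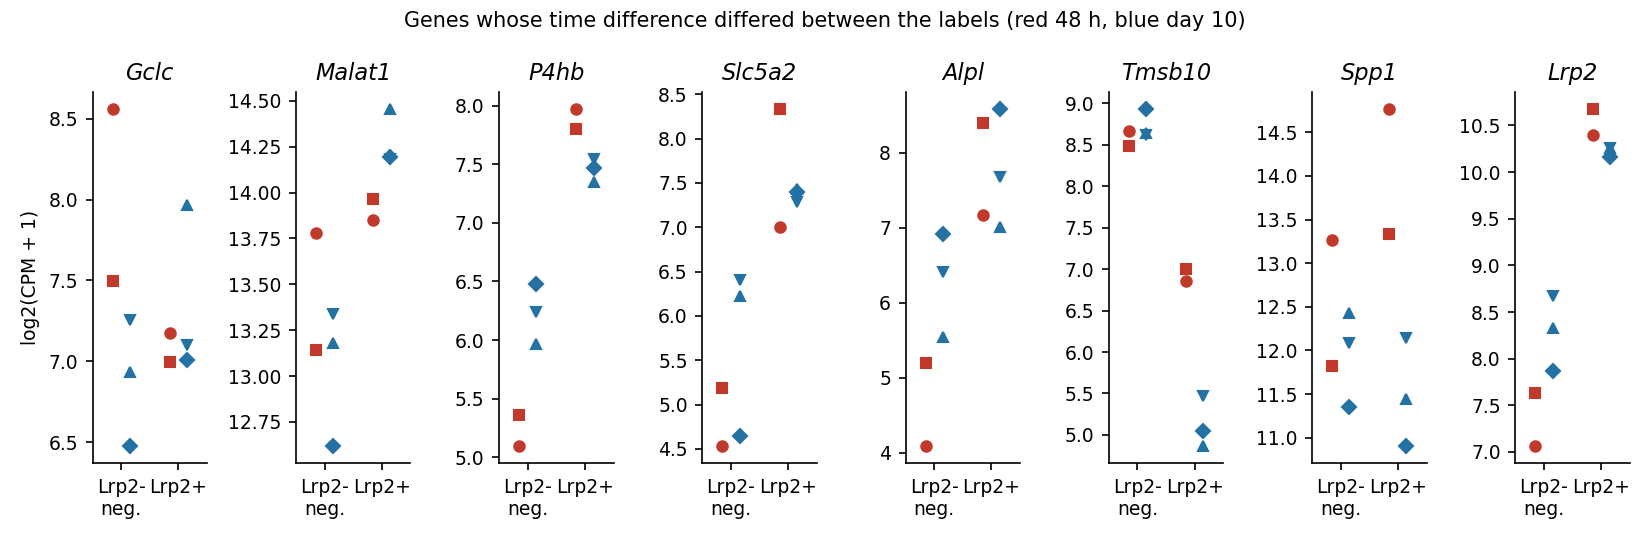
Levels per mouse as log2(CPM + 1) of the 7 genes with the largest differences of the time effect under the naming rule, and of Lrp2, in Lrp2-negative (left) and depth-matched Lrp2+ (right) S2/3 cells; red is 48 h, blue is day 10, and each panel has its own axis that need not start at 0. Spp1 and Tmsb10 fall with time on the right only, and P4hb, Alpl and Lrp2 are higher at day 10 on the left only.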

How the data were processed

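Single-cell libraries of 5 mouse kidneys were read from the deposited matrices of raw UMI counts (32285 genes). The authors' deposited cell table gives, per cell, UMI and gene counts, the percent of mitochondrial UMIs, the label, the cluster and embedding scores, which were not used. The submitters' processing notes name Cell Ranger 6.0.2, Seurat 4.0.5 and mm10, and the file headers Cell Ranger 6.0.0. The table's counts and percent values were checked against the matrices. No doublet caller was run here, and no doublet step is given in the sources used here.

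UMI counts were summed per mouse over the label's cells and tested with edgeR 4.0.16 in R 4.3.3 (filterByExpr, TMM), with DESeq2 1.42.0 as an alternative. Lrp2+ cells were matched by drawing as many cells per mouse and thinning each to a paired cell's UMIs. Mouse 1 had 82 such cells for 318, so all 82 were used, and 1 cell of mouse 2 fell short. Log2 ratios used a prior count of 0.5. Each mouse is 1 replicate, and edgeR's p-values rest on the spread between these mice, with information on that spread shared across genes. The SE of an edgeR fit was derived from the log2 fold change and the F statistic.

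Named genes were the 10 largest rises and falls past the threshold with groups that do not overlap and an average log2 CPM of 7 or more, up to 3 each way per list, and the markers with Lrp2; for label against label, the 12 highest and lowest ratios; for the difference of time effects, the 5 largest each way at that average. The members, lists (28) and rules were chosen with earlier results of these data known. On counts simulated for the time effect (5268 genes), the test called 44.8% of 2-fold and 83.9% of 4-fold changes and 0.138% of unchanged genes. For the difference of time effects (5530 genes) it called 7.49% of 4-fold differences, and 15.5% at an average log2 CPM of 7 or more. That simulation gave every gene the same assumed spread in place of the spread seen in the data. Its shares therefore need not hold for the real fit. Gene positions are from GENCODE M21 and promoter sequences from RefSeq, both GRCm38.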

Additional observations from a re-analysis of the deposited data

Results flagged for a closer look

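The results below are from the 38 genes whose time effect differed between the Lrp2-negative and the Lrp2+ S2/3 label. That was by a test of the difference itself (label-by-time term, edgeR, adjusted over all genes). Not all 38 are listed. Spp1, Tmsb10, Alpl, Slc5a2, P4hb, Gclc and Malat1 were named by the rule, and the others listed were named after their values were seen. More positive in the Lrp2-negative cells, on the log2 scale, were Spp1 by 1.99, Tmsb10 by 1.97, Alpl by 1.76, Slc5a12 by 1.68, Slc5a2 by 1.64, Pdia6 by 1.56, Cubn by 1.56, P4hb by 1.41, Ppib by 1.25, App by 1.23, Igfbp7 by 1.11, Slc13a1 by 1.01, Hsp90b1 by 0.99, Calr by 0.95, Slc4a4 by 0.85, Gatm by 0.85, mt-Nd1 by 0.80, mt-Cytb by 0.67 and mt-Co3 by 0.66. More negative were Gclc, with -1.53, and Malat1, with -0.75. P4hb, Slc5a2, Cubn, Slc4a4, Calr, mt-Co3 and mt-Cytb did not pass with a second draw of Lrp2+ cells. Spp1 passed without each mouse in turn. Without mouse 2 the adjusted p was 0.0621 for Tmsb10, 0.186 for Alpl and 0.66 for Slc5a2. Without mouse 1 it was 0.36 for Gclc, 0.914 for Malat1, 0.366 for P4hb and 0.138 for Igfbp7.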

How the results depend on the processing

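The time points could not be paired, because the mice at 48 h (1 and 2) and at day 10 (3, 4 and 5) are different animals. The count of genes changed with time in the Lrp2-negative label was 49 with DESeq2, 179 without a filter on low counts, 15 with equal cells and UMIs per mouse (1796 genes tested), and 31 to 136 without each mouse in turn; 10 of the 81 genes passed under every alternative. In depth-matched Lrp2+ cells it was 1.1e+02 (to 2 digits) with all cells unthinned, 12 with a second draw, and 2 to 30 without each mouse. For the difference of time effects it was 80 with all Lrp2+ cells unthinned, 18 with DESeq2, and 13 to 48 without each mouse. The log2 fold change of the share of proximal tubule cells ran from -1.06 to -0.81 without each mouse, and the difference in the share of S2/3 cells from -50.1 to -20.6 percentage points. The difference in median UMIs ran from 236 to 475. Genes higher than in Lrp2+ cells numbered 8 against unthinned cells under 4000 UMIs, 38 against all unthinned cells, 13 with mitochondrial genes left out and 3 centred on the median gene, an alternative chosen after seeing the data; genes lower numbered 128 with mitochondrial genes left out. Without thinning, the shares of cells with a UMI were 35.7% for Lrp2, 80.6% for Gsta2, 38.7% for Acaa1b and 69.9% for Fbp1. Signs turned for small values: the time effect of Gsta2 was 0.0041 with equal cells and ran from -0.30 to 0.068 without each mouse (0.0078 without mouse 3), and that of Fbp1 ran from -0.64 to 0.035. The level ratio of Gsta1 was -0.47 against cells under 4000 UMIs, -0.49 with a second draw and -0.20 to 1.58 without each mouse, that of Acaa1b 0.11 with a second draw, and that of Fbp1 -0.023 with mitochondrial genes left out and -0.31 centred. The cause of these differences was not tested. Genes under about 200 CPM rest on few UMIs in mouse 4, where 3 counts are 24.0 CPM.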
